A study of Mus musculus with 383 samples.

Results

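Vagal motor nuclei with the most reads of Nos1, the gene of neuronal nitric oxide synthase, were set against those with the fewest. The deposited table holds 383 single nuclei. Nuclei were kept with at least 500000 reads (295 nuclei), at least 1000 genes with a read (295), a read of Chat or Slc5a7 (294) and a read of Tbx20 (265), the last 3 being genes of acetylcholine synthesis, choline uptake and visceral motor neuron identity. The 265 kept nuclei were ranked by their Nos1 reads, scaled to the total reads of the nucleus as CPM (counts per 1000000 reads), and cut into 4 bands of about 25%. The 66 nuclei of the highest band, called Nos1-high here, and the 66 of the lowest band, called Nos1-low, are described over all genes. These 132 nuclei were thus chosen by their Nos1 reads. The 66 nuclei of the second band and the 67 of the third lie between them.

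All nuclei share 1 genotype and 1 treatment, and the study holds no other group. They came from male Chat-IRES-Cre mice on the C57BL/6 background, in which Cre recombinase is made where the acetylcholine-synthesising enzyme gene Chat is active. At 10 weeks of age the mice received 100 nL of AAV9-DIO-H2b-mCherry, a Cre-dependent virus that puts a red protein on the chromatin, and tissue was taken 16 days later. The tissue was pooled, so no nucleus can be assigned to an animal, and all nuclei count as 1 sample. Differences between the bands are therefore given without p-values. The labels name the tissue as the dorsal motor nucleus of the vagus, but the protocol also speaks of suprachiasmatic sections, which was not resolved.

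The dorsal motor nucleus of the vagus holds the parasympathetic neurons of the brainstem that drive the stomach, the gut and other viscera through ganglia in the organ wall. These neurons use acetylcholine, and a subset also makes nitric oxide from arginine with neuronal nitric oxide synthase. Nitric oxide diffuses to nearby cells, binds soluble guanylyl cyclase and raises cyclic GMP, which activates cGMP-dependent kinases and is removed by phosphodiesterases. In the stomach, vagal pathways that use nitric oxide are known for relaxing the wall, and cholinergic ones for contracting it.

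A pair of measures is used, both after each nucleus was thinned at random to 500000 reads, so that depth is equal. The first is the share of nuclei with at least 1 read of a gene, with an exact Clopper-Pearson 95% interval that covers counting error only. A gene passed the share rule where the shares differed by at least 30 percentage points and the intervals did not overlap. The other is the mean of log2(CPM + 1), and a gene passed the level rule where the means differed by at least 1. Fold values on that scale understate the change of low genes. The rules were applied to the 17477 genes with a read in at least 10% of the kept nuclei, and Nos1 itself, which chose the groups, was not counted among the calls.

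The genes that most often passed the share rule across settings were Sstr2, Hcrtr1, Fgd5, Gatd1 and Leprot, all found in more Nos1-high than Nos1-low nuclei. The first 3 passed the share rule under each of 14 alternative settings that change the groups, the depth or the detection limit, and the other 2 under 13 of them. The 250 bases before the RefSeq start of 4 of these genes are shown because the genes had higher shares in the Nos1-high group. They are given 5′ to 3′ on the gene's strand, build GRCm38.p6, and capitals mark matches to the cyclic AMP response element or its half-site. The windows are Sstr2 at chr11:113619077-113619326 on the plus strand, the first of 3 Hcrtr1 starts at chr4:130139163-130139412 on the minus strand, Fgd5 at chr6:91978715-91978964 on the plus strand and Leprot at chr4:101647533-101647782 on the plus strand.
Sstr2: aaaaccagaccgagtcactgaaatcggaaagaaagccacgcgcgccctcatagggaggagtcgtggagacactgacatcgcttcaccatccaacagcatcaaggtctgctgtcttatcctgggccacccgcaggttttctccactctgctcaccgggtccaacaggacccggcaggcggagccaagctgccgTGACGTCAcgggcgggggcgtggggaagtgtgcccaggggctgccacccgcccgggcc
Hcrtr1: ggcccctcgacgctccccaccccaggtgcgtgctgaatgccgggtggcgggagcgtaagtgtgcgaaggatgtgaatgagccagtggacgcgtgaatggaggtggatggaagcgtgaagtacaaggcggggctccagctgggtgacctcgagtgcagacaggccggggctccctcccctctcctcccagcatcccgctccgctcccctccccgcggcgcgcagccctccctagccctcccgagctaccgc
Fgd5: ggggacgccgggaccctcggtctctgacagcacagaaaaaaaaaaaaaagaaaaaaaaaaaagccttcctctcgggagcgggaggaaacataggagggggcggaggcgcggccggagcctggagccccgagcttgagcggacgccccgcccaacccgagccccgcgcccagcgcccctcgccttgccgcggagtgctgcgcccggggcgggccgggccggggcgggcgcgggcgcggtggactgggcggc
Leprot: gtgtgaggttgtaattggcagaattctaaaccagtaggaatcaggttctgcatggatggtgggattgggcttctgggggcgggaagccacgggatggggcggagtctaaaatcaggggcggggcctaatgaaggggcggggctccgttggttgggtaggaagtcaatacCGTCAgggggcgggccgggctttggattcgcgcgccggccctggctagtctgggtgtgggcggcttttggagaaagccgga
On both strands, the full element TGACGTCA was found in the Sstr2 window, at a place that also holds both orientations of its half-site. The half-site, TGACG or CGTCA, was found once in the Leprot window and not in these Hcrtr1 and Fgd5 windows. Among windows scanned but not shown, the half-site stood once each for Nos1 and Adra2a. It stood 2 times for Isl1, which was less frequent in Nos1-high, and in neither window of Lepr. Over 32851 RefSeq windows of the same length, 1.55% held the full element and 17.8% the half-site. Neither AGGTGT, a T-box half-site with ACACCT as its other strand, nor TAATTA, a homeodomain core, was found in the 4 windows shown. They stood in 11.8% and 4.84% of all windows. The T-box half-site was found once in the third Hcrtr1 window and once in the first Lepr window, which are not shown. A match of letters is a description of the sequence and not a bound site.

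Nos1 lies on the plus strand of chromosome 5, from 117781032 to 117958840 in GRCm38, and spans 177.8 kb with 33 exons. In the Nos1-low nuclei its level was 0 CPM at the lowest, 6.86 at the median and 31.4 at the highest. The second band ran from 32.2 to 76.9 CPM with a median of 57.0, and the third from 78.5 to 137.7 CPM with a median of 98.8. The Nos1-high nuclei ran from 141.4 to 980.9 CPM with a median of 219.2. These values set the groups. The ranking has no gap at either border, since 31.4 CPM just inside Nos1-low was followed by 32.2 outside it, and 137.7 CPM just outside Nos1-high by 141.4 inside it.

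**Figure D1:**
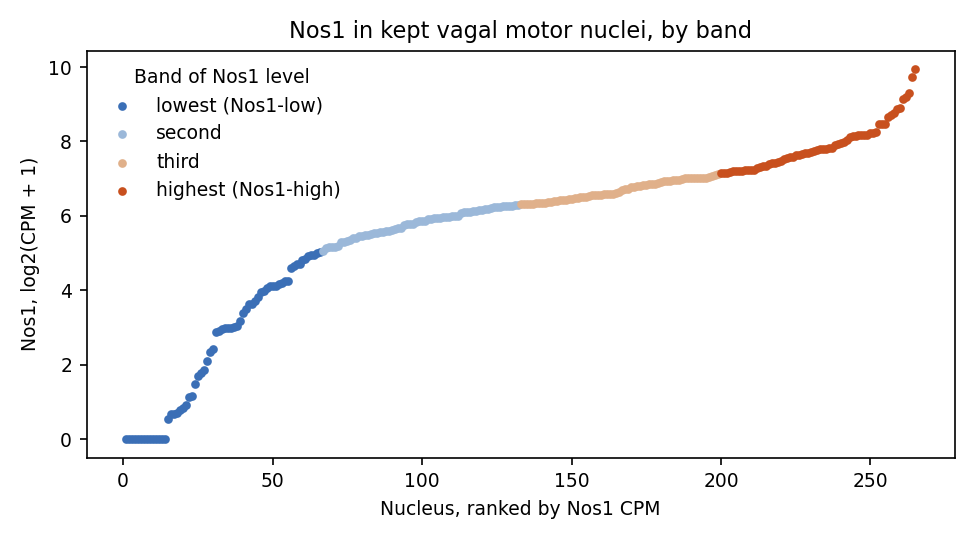
Nos1 level of each of the 265 kept nuclei, as log2(CPM + 1), against the rank of the nucleus, coloured by band. The level runs from 0 in 14 nuclei to 980.9 CPM, and the borders of the lowest and highest bands at 31.4 and 141.4 CPM show no gap.

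Nos1-low does not mean that Nos1 was absent. Of the 265 kept nuclei, 14 had no Nos1 read, and after thinning 21 of the 66 Nos1-low nuclei had none, leaving 68.2% with a read (95% interval 55.6% to 79.1%). Every Nos1-high nucleus kept a read after thinning. Some Nos1 exon bases, 268 in all, are shared with a gene on the opposite strand, Gm26995, and whether counting used strand is not given in the sources used here. The same holds for other named genes whose exons overlap a gene on the opposite strand, among them 1016 bases for Kcnma1, 741 for Pde3a, 475 for Lrp10, 358 for Wnt5a, 256 for Cadm2, 244 for Tmie, 169 for Cdipt, 130 for Hs3st4, 123 for Ngef, 115 for Tbx3 and under 100 for Pde5a, Rgs6, Ano3, Nudt17, Tspo, Xpa and Mrpl27.

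Depth was similar in the bands. The median total was 1392350 reads in Nos1-low and 1424246 in Nos1-high, within 532391 to 4545281 and 615703 to 4699420 reads. Thinned nuclei had a median of 10111.5 genes with a read in Nos1-low and 10415.5 in Nos1-high. Other properties moved with Nos1. Reads of genes that span 100 kb or more took a median of 52.9% of a nucleus in Nos1-low and 48.6% in Nos1-high, and reads of genes under 10 kb took 7.44% and 8.83%. Ribosomal protein genes took 0.138% and 0.182% of reads, and mitochondrial genes 0.068% and 0.107%, with no kept nucleus above 0.534%. Their part in the differences between the bands was not tested, and values with bands set within classes of long-gene reads are given after the length classes.

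Both groups carried the genes that define cholinergic vagal motor neurons. Chat was read in 95.5% of Nos1-low and 98.5% of Nos1-high nuclei, at mean levels that differed by −0.04 on the log2 scale. Slc5a7, the choline transporter, was read in 98.5% and 100% of nuclei with a difference of 0.43. Slc18a3, the vesicular acetylcholine transporter, was read in 95.5% and 98.5% with a difference of 0.60. Tbx20, a T-box transcription factor of visceral motor neurons, was read in 93.9% and 98.5% with a difference of 0.08. Without the 18 nuclei with somatic motor markers described next, with bands set again, the Tbx20 difference was −0.70, while those of Chat, Slc5a7 and Slc18a3 were −0.04, 0.46 and 0.60. Chat, Slc5a7 and Tbx20 were part of the selection, so high shares were set by it, but the selection did not use their level.

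Over other genes of motor neurons the bands were less alike. Prph, the gene of the intermediate filament peripherin, was read in 87.9% of Nos1-low and 98.5% of Nos1-high nuclei, and its mean level was 1.52 higher on the log2 scale, past the level rule. Tbx3 was highest in the middle, at 48.5%, 68.2%, 65.7% and 54.5% of nuclei over the 4 bands.

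Markers of somatic motor neurons, such as those of the nearby hypoglossal nucleus, stood more often in Nos1-low nuclei. All 7 listed markers had a higher share in Nos1-low than in Nos1-high, among them Chodl at 19.7% against 3.03%, Lhx4 at 24.2% against 12.1% and Calca at 10.6% against 1.52%. Mnx1, a defining factor of somatic motor neurons, was read in 6.06% of Nos1-low nuclei and in 0 of 66 Nos1-high nuclei, which allows a share of up to 4.55% (3 counts of the total). Their summed level ran from 0 to 1375 CPM in Nos1-low with a median of 7.65, and from 0 to 699.3 CPM in Nos1-high with a median of 2.62. Of 18 kept nuclei with at least 3 of the 7 markers, 10 were Nos1-low and 2 were Nos1-high. Values without these nuclei are given below for the genes they moved most. Markers of glia, vessels and other neurons had like median shares in both groups, such as 15.9% and 18.9% for 6 astrocyte markers and 10.6% and 7.58% for 6 microglia markers.

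By the share rule, 44 of the 17477 genes (0.252%) were higher in Nos1-high and 3 (0.0172%) were lower. By the level rule, 702 genes (4.02%) were higher and 257 (1.47%) lower. With a pseudocount of 10 CPM the level counts were 58 and 39, and with groups widened to 88 nuclei each they were 313 and 88, with 6 and 0 by share. Of the 44 higher by share, 42 were also higher by level, and all 3 lower by share were lower by level. Of the 44, 4 carry predicted names and are counted only. The median difference over all genes tested was 0 points and 0.04 on the log2 scale. The middle of the distribution was thus close to 0 on both measures.

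**Figure D2:**
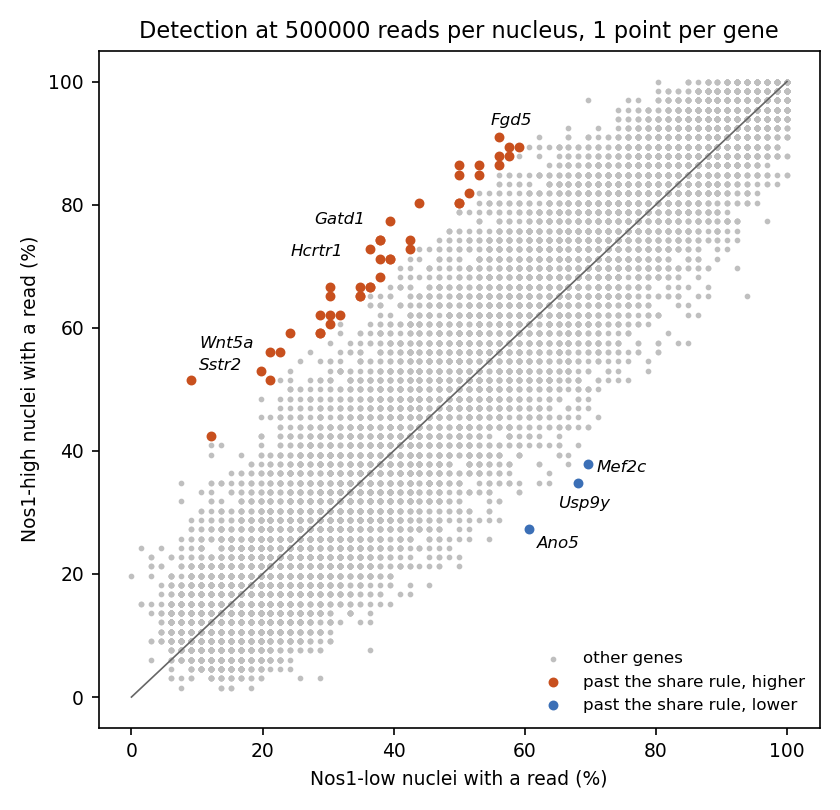
Share of Nos1-low nuclei with a read of each gene, in percent, against the share of Nos1-high nuclei, after thinning to 500000 reads. Grey points are the genes tested, coloured points the 44 higher and 3 lower by the share rule, and the line marks equal shares. Most genes lie along the line, and Sstr2 stands furthest above it, at 9.09% against 51.5%.

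Several genes higher in Nos1-high encode receptors on the cell surface. Sstr2 encodes a receptor for the inhibitory peptide somatostatin (chr11:113619342-113626028, plus strand, 2 exons). It had a read in 6 of 66 Nos1-low nuclei (9.09%, interval 3.41% to 18.7%) and in 34 of 66 Nos1-high nuclei (51.5%, 38.9% to 64.0%). Among Nos1-low nuclei Sstr2 ran from 0 to 71.5 CPM with a median of 0, and among Nos1-high nuclei from 0 to 198.6 CPM with a median of 6.40. The ranges overlap, since 0 is found in both groups. The share was 27.3% in the second band and 43.3% in the third, so it was higher at each step. Of all genes that passed the share rule, Sstr2 had the widest difference, 42.4 points, and its mean level differed by 1.99 on the log2 scale.

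Hcrtr1 encodes a receptor for orexin, the hypothalamic peptide of arousal and feeding (chr4:130130217-130139359, minus strand, 10 exons). It had a read in 24 Nos1-low nuclei (36.4%, interval 24.9% to 49.1%) and in 48 Nos1-high nuclei (72.7%, 60.4% to 83.0%). Its level ran from 0 to 138.1 CPM in Nos1-low with a median of 0, and from 0 to 348.4 CPM in Nos1-high with a median of 25.1. Unlike Sstr2, Hcrtr1 was nearly level over the first 3 bands, at 36.4%, 43.9% and 46.3%, and the wide step was the last. The related receptor gene Hcrtr2 did not pass the share rule, at 36.4% and 50.0%, but its level was 1.09 higher.

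Adra2a, which passed the share rule under 8 of the 14 alternatives, encodes an adrenoceptor for noradrenaline that couples to inhibitory G proteins (chr19:54044151-54048982, plus strand, 1 exon). It had a read in 34.8% of Nos1-low nuclei (23.5% to 47.6%) and in 66.7% of Nos1-high nuclei (54.0% to 77.8%), with 43.9% and 55.2% between them. Its median was 0 CPM in Nos1-low and 15.8 CPM in Nos1-high, and its highest values were 100.4 and 228.7 CPM. Chrnb4 and Chrna3, subunits of the ganglionic nicotinic acetylcholine receptor, were higher by level, by 2.09 and 1.05 on the log2 scale. For Chrnb4 the shares were 42.4%, 63.6%, 70.1% and 69.7%, so that Nos1-low stood apart from the other 3 bands. Cnr1, the gene of the cannabinoid receptor of neurons, followed the same shape, at 62.1%, 77.3%, 82.1% and 81.8%.

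The 3 receptor genes Sstr2, Hcrtr1 and Adra2a were also counted together in each nucleus, as a description, since each was chosen for its higher share. All 3 had a read in 19 of 66 Nos1-high nuclei (28.8%), 8 of 67 in the third band, 4 of 66 in the second and 0 of 66 Nos1-low nuclei, which allows a share of up to 4.55% (3 counts of the total). None of the 3 had a read in 28 Nos1-low nuclei (42.4%), 16 and 9 nuclei of the middle bands and 3 Nos1-high nuclei (4.55%). Within Nos1-high the genes did not all go together. Adra2a was read in 36 of the 48 nuclei with Hcrtr1 (75.0%) and in 44.4% of those without. Hcrtr1 was read in 67.6% of the nuclei with Sstr2 and in 78.1% of those without. Both directions were also seen in the other bands. From Nos1-low to the third band, Adra2a was read in 50.0%, 55.2% and 67.7% of nuclei with Hcrtr1. Without Hcrtr1 it was read in 26.2%, 35.1% and 44.4%.

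Lepr and Leprot differed in opposite directions although they are neighbours. Leprot, whose product lowers the amount of leptin receptor at the cell surface, lies at chr4:101647718-101659364 and Lepr, the leptin receptor gene, at chr4:101717404-101815352. Both are on the plus strand, and they do not overlap in the annotation used. Leprot was read in 37.9% of Nos1-low nuclei (26.2% to 50.7%), 53.0% and 64.2% in the middle, and 74.2% of Nos1-high nuclei (62.0% to 84.2%). Lepr was read in 66.7%, 69.7%, 59.7% and 37.9% of nuclei in the same order. Its difference of −28.8 points missed the share rule, and its mean level was −1.76 on the log2 scale, past the level rule. The Lepr median was 8.13 CPM in Nos1-low and 0.38 CPM in Nos1-high, with ranges of 0 to 305.4 and 0 to 210.2 CPM. Without the 18 nuclei with somatic motor markers, Lepr stood at 70.5% against 34.4%, a difference of −36.1 points.

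**Figure D3:**
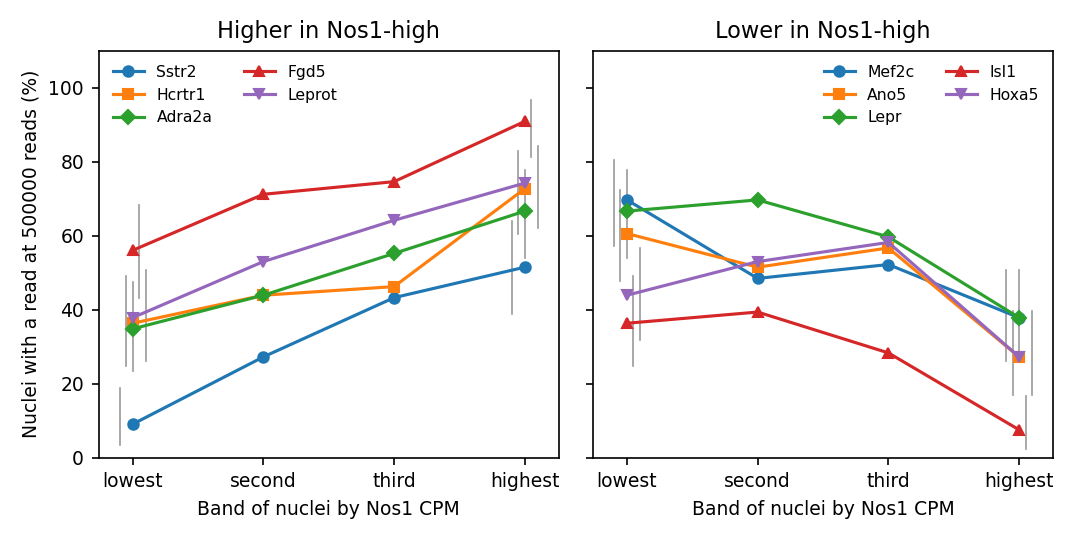
Share of nuclei with a read, in percent, over the 4 bands of Nos1 level from lowest to highest, for 5 genes higher in Nos1-high and 5 lower. Grey bars, drawn for the lowest and highest bands, set beside the points in the order of the legend, are exact 95% intervals over 66 nuclei and cover counting error only. Sstr2 and Leprot are higher at each step, and Hcrtr1 steps mainly between the third and the highest band. Of the lower genes, Lepr and Isl1 passed by level only. Hoxa5 passed neither rule, at 43.9%, 53.0%, 58.2% and 27.3% over the bands.

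Among genes of signalling inside the cell, Fgd5 was found in most Nos1-high nuclei. Fgd5 encodes an exchange factor for the small GTPase Cdc42 (chr6:91978878-92076004, plus strand, 21 exons). It had a read in 56.1% of Nos1-low (43.3% to 68.3%) and 90.9% of Nos1-high nuclei (81.3% to 96.6%), with 71.2% and 74.6% between. Its median was 4.95 CPM in Nos1-low and 68.6 CPM in Nos1-high, over ranges of 0 to 257.5 and 0 to 442.0 CPM. The mean level differed by 2.63 on the log2 scale, the widest of the genes higher by level. Ngef, another exchange factor gene, was read in 53.0% and 86.4% of nuclei, with medians of 3.29 and 41.8 CPM. Rasgrf1, an exchange factor gene for Ras, passed by level only, with medians of 12.3 and 543.5 CPM and a difference of 2.17 on the log2 scale. Its SD over nuclei was above 4 on that scale in both groups, so that Rasgrf1 was high in some nuclei and near 0 in others of each group.

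Kcna5 encodes a voltage-gated potassium channel (chr6:126532551-126535412, minus strand, 1 exon). It was read in 57.6%, 75.8%, 80.6% and 87.9% of nuclei from the lowest to the highest band, with medians of 8.81 CPM in Nos1-low and 55.4 CPM in Nos1-high. Of 68 potassium channel genes tested, Kcna5 was the only one past the share rule, and 4 were lower by level, namely Kcnh5, Kcnh8, Kcnj6 and Kcnk2. Kcna5 was also the only one higher by level. Among all genes tested, 0.252% were higher by share, and 4.02% were higher and 1.47% lower by level. Wnt5a, a secreted signal of the Wnt family, was read in 21.2%, 31.8%, 29.9% and 56.1% of nuclei. Lrp10, a receptor of the low-density lipoprotein receptor family, was read in 30.3% of Nos1-low nuclei and in 57.6%, 53.7% and 65.2% of the others. Tmie, known from the mechanotransduction complex of hair cells, was read in 50.0% of Nos1-low nuclei and in 74.2%, 83.6% and 84.8% of the others. Lhfpl2, a tetraspan membrane protein gene, passed by level only, by 2.42 on the log2 scale, with medians of 3.90 and 83.4 CPM.

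Further genes were among the 12 with the widest share differences. Trappc1, a subunit of a vesicle tethering complex, was read in 50.0% of Nos1-low and 86.4% of Nos1-high nuclei. Gatd1 was read in 39.4% and 77.3%, Ppdpf in 37.9% and 74.2%, the Nudix hydrolase gene Nudt17 in 30.3% and 66.7%, and the zinc finger gene Zfp275 in 43.9% and 80.3%. In these 5 genes the median level in Nos1-low was 0 CPM, or 2.64 CPM for Trappc1, and the medians in Nos1-high ran from 6.07 CPM for Ppdpf to 25.3 CPM for Trappc1. Other genes past the share rule were Mrpl11 and Mrpl27 of the mitochondrial ribosome, Xpa and Gtf2h5 of DNA repair, Tspo of the outer mitochondrial membrane and Dhodh of pyrimidine synthesis. Each of these 6 stood 30.3 to 31.8 points higher in Nos1-high, and they passed the share rule under 2 to 8 of the 14 alternatives.

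**Figure D4:**
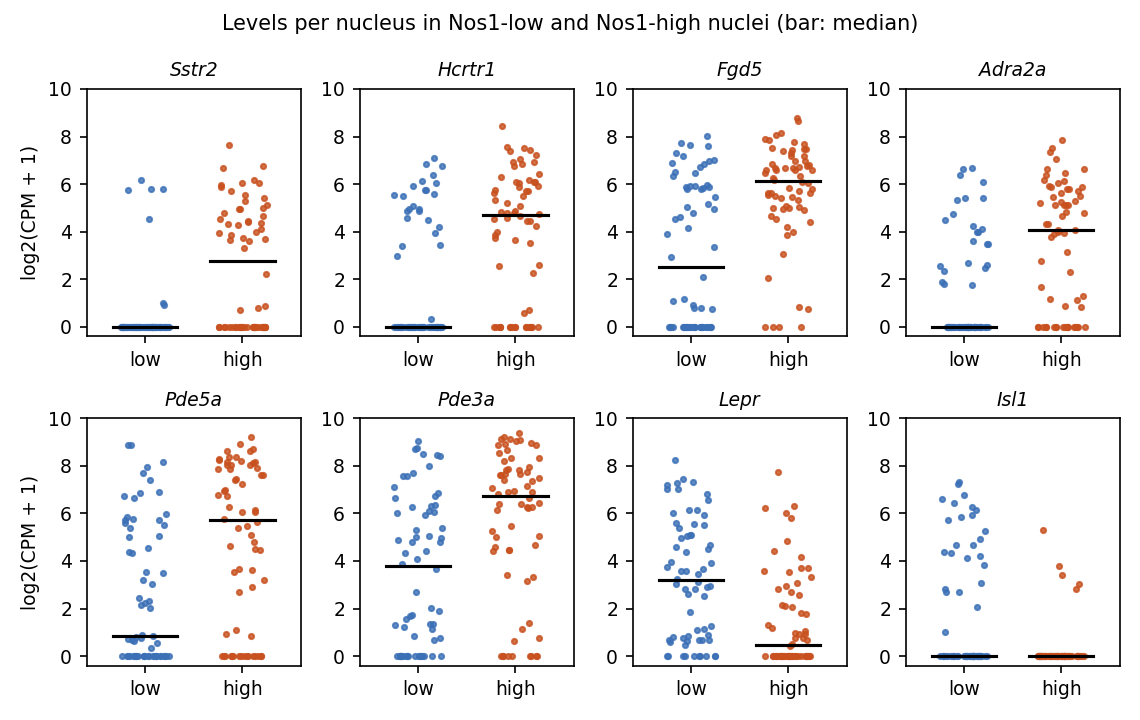
Level of 8 genes in each Nos1-low and Nos1-high nucleus as log2(CPM + 1), with 1 point per nucleus and a horizontal bar at the median. Nuclei at 0 are present in both groups for each of the 8 genes, so the groups differ in how many nuclei stand high and not by separate ranges.

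Of 59 listed genes of the nitric oxide and cGMP pathway other than Nos1, 56 were in the table and 49 were tested. By share 1 (Ddah2) was higher and 0 were lower, against 0.252% and 0.0172% of all genes tested. By level 4 were higher and 2 lower, against 4.02% and 1.47%, and the median difference was 3.03 points. Ddah2, which breaks down a methylated arginine that inhibits nitric oxide synthases, was read in 36.4%, 42.4%, 44.8% and 66.7% of nuclei. Its medians were 0 CPM in Nos1-low and 14.7 CPM in Nos1-high, and it passed the share rule under 2 of the 14 alternatives. The related Ddah1 was read in 92.4% and 97.0% of nuclei and differed by 0.17 on the log2 scale. The scaffold gene Nos1ap, whose product binds neuronal nitric oxide synthase, was read in 95.5% and 100% of nuclei and differed by 0.12.

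On the side that receives nitric oxide, the guanylyl cyclase subunit genes did not pass. Gucy1a3 was read in 50.0% and 66.7% of nuclei with a level difference of 0.87, Gucy1b3 in 90.9% of both with 0.52, and Gucy1a2 in 100% and 98.5% with 0.27. Of the genes on this list for phosphodiesterases, Pde5a and Pde3a, whose products can break down cGMP, were higher by level, by 2.06 and 2.13 on the log2 scale, and no other passed. Pde5a had medians of 0.82 CPM in Nos1-low and 51.6 CPM in Nos1-high, but its share over the bands, 53.0%, 62.1%, 56.7% and 71.2%, was not ordered in the middle. Prkg1, the gene of the main cGMP-dependent kinase of neurons and smooth muscle, was lower by −1.27, with medians of 854.9 and 477.1 CPM, and was read in nearly all nuclei of both groups. Prkg2 was read in 47.0% and 36.4% of nuclei with a difference of −0.77. Without the 18 nuclei with somatic motor markers the Prkg1 difference was −1.65. Prkg1 spans 1201 kb. Genes of 100 kb or more had a median difference of −0.18, and 6.09% of them were lower by level, as given below. Whether length bears on the Prkg1 difference was not tested.

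Peptides showed no gene past the share rule among 29 tested of 67 listed, and 4 were higher by level, with a median of 1.52 points over the list. None was lower by level, where 4.02% of all genes tested were higher and 1.47% lower. Adcyap1, the gene of the peptide PACAP, was read in 83.3% and 98.5% of nuclei, with medians of 81.1 CPM in Nos1-low and 243.1 CPM in Nos1-high and a level difference of 2.28. Gal, the gene of galanin, was read in 83.3%, 93.9%, 98.5% and 95.5% of nuclei and differed by 1.53. Without the nuclei with somatic motor markers the difference for Gal was 0.71, below the level rule, and for Adcyap1 it was 1.80. Vgf and Nxph4 were the other 2, by 1.43 and 1.66.

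Peptides of smaller subsets had shares at both ends of the range. Cck, the gene of cholecystokinin, was read in 12 Nos1-high nuclei (18.2%, interval 9.76% to 29.6%) and 5 Nos1-low nuclei (7.58%, 2.51% to 16.8%), and in 1.52% and 4.48% of the middle bands. Of the 12 Nos1-high nuclei with Cck, 11 had Hcrtr1 (91.7%), 9 had Adra2a (75.0%) and 7 had Sstr2 (58.3%). The other Nos1-high nuclei had these in 68.5%, 64.8% and 50.0%. Npy2r, a neuropeptide Y receptor gene, was read in 1 of the 12 and in 51.9% of the other Nos1-high nuclei. Without any nucleus with a Cck read, with bands set again, the difference was 39.3 points for Sstr2, 31.1 for Hcrtr1 and 34.4 for Fgd5. Pdyn, the gene of dynorphin, was read in 19.7%, 13.6%, 20.9% and 4.55% of nuclei and passed neither rule. Npy2r was more frequent in the middle, at 54.5%, 72.7%, 70.1% and 43.9%. Cckar, a cholecystokinin receptor gene, was read in 34.8% and 36.4%.

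The receptor lists are read against 0.252% and 0.0172% of all genes tested that were higher and lower by share, and 4.02% and 1.47% by level. Of 49 tested peptide and hormone receptor genes of 72 listed, 2 were higher by share (Hcrtr1 and Sstr2) and 0 lower, 4 were higher by level and 1 (Lepr) was lower, and the median was −4.55 points. Of 43 tested receptor genes for monoamines, acetylcholine and purines of 65 listed, 1 was higher by share (Adra2a) and 4 by level, including Htr4 for serotonin by 1.01, and 0 were lower. The median over that list was 1.52 points by share but −0.05 on the log2 scale by level. Of 45 tested genes for GABA, glycine and glutamate receptors of 51 listed, none passed by share, 5 were higher by level and 5 lower. The 5 that were higher were the GABA receptor subunit genes Gabra2, Gabra4, Gabrg1 and Gabrq, by 1.03 to 1.61 on the log2 scale, and the glycine receptor subunit gene Glra2, by 1.42. The 5 that were lower were the glutamate receptor genes Gria3, Grik3, Grin2a, Grm4 and Grm5. Gria3 had the widest of these differences, −2.10, with medians of 46.8 CPM in Nos1-low and 0.92 CPM in Nos1-high.

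Of 56 tested genes for sodium, calcium and other cation channels, 1 was higher by level, Scn2b, a sodium channel beta subunit gene, by 1.73, and 3 were lower, Cacna1h, Trpc7 and Asic2. Cacna1h, a low-threshold calcium channel gene, was read in 65.2%, 62.1%, 67.2% and 39.4% of nuclei and had medians of 14.0 and 0.46 CPM. In the lists for axon injury, immediate early genes and interferon response, 12, 12 and 18 genes were tested and none passed either rule in either direction. Of 7 genes of acetylcholine synthesis and transport, 1 was lower by level, Bche, a cholinesterase gene, by −1.75. Of 19 tested genes of calcium-binding proteins 3 were higher and 2 lower by level, and of 91 genes of adhesion, guidance and trophic signals 9 were higher and 6 lower, with none past the share rule and medians of 0 points. The lists in this paragraph stand beside 4.02% of all genes tested higher and 1.47% lower by level. By share these were 0.252% and 0.0172%.

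The 3 genes lower in Nos1-high by the share rule passed it under 6 to 9 of the 14 alternatives. Ano5 encodes a membrane protein of the anoctamin family (chr7:51511029-51598709) and was read in 60.6%, 51.5%, 56.7% and 27.3% of nuclei. Mef2c encodes a transcription factor of neurons and muscle (chr13:83504034-83667080) and was read in 69.7%, 48.5%, 52.2% and 37.9%. Its medians were 21.5 CPM in Nos1-low and 0 CPM in Nos1-high. Usp9y, a Y-linked deubiquitinase gene (chrY:1298961-1459782), was read in 68.2%, 50.0%, 64.2% and 34.8%. None of the 3 was lower in the third than in the second band. Usp9y depended on the single random thinning: its difference was −33.3 points here and −12.1 points in another draw.

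The transcription factor list gave no gene past the share rule among 74 tested of 101 listed, with 4 higher by level, 7 lower and a median of −2.27 points. By level, 4.02% of all genes tested were higher and 1.47% lower. Isl1, the LIM-homeodomain factor gene of motor neurons, was read in 24 Nos1-low nuclei (36.4%, interval 24.9% to 49.1%) and in 5 Nos1-high nuclei (7.58%, 2.51% to 16.8%), with 39.4% and 28.4% between. Its reads pooled over the group came to 21.7 RPM (reads per 1000000 pooled reads) in Nos1-low and 0.80 RPM in Nos1-high. The difference of −28.8 points missed the share rule, and the level difference of −1.48 passed. Without the nuclei with somatic motor markers, which also use Isl1, the shares were 32.8% and 8.20%. In Nos1-low, 20 of the 24 nuclei with Isl1 also had Lepr (83.3%), against 57.1% of the nuclei without Isl1. Meis2 and Nfia, developmental factor genes, were lower by level, by −2.09 and −1.81. Among the factors higher by level, Nr4a2 differed by 1.04, Tshz2 by 1.02 and Zfhx4 by 1.30.

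The widest level differences in the lower direction were in long genes read in most nuclei of both groups. Rgs6, a regulator of G-protein signalling, had medians of 360.1 CPM in Nos1-low and 23.2 CPM in Nos1-high, and its mean level differed by −2.73 on the log2 scale. Sorcs3, a sorting receptor gene, had medians of 1178 and 145.7 CPM and a difference of −2.70. Cadm2, a cell adhesion molecule gene, had 361.0 and 59.9 CPM and −2.59. Hs3st4, a heparan sulfate sulfotransferase gene, had 180.0 and 17.2 CPM and −2.50, and Ano3, of the anoctamin family, had 62.3 and 4.92 CPM and −2.13. In each of these 5 genes the mean level was lower at each step from the lowest to the highest band, as for Rgs6 at 7.13, 6.62, 6.23 and 4.40. For Ano3 the middle step was slight, from 4.65 to 4.64. These 5 genes span between 295.7 kb for Ano3 and 965.5 kb for Cadm2. Gria3, described above, came next among genes without predicted names, at −2.10, and spans 277.7 kb. Its mean level was not ordered over the bands, at 5.02, 3.25, 3.68 and 2.93.

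Gene length moved with the direction of the differences. The median span of all tested genes with a span was 28.9 kb, against 6.45 kb for the genes higher by share, 12.9 kb for those higher by level and 138.4 kb for those lower by level. Of 3472 genes under 10 kb, 8.41% were higher by level and 0.288% lower. Of 2693 genes of 100 kb or more, 1.52% were higher by level and 6.09% lower. The median log2 difference was lower in each longer class, at 0.25 under 10 kb, 0.11 from 10 to 30 kb, −0.02 from 30 to 100 kb and −0.18 at 100 kb or more. The members named above depart from this to differing degrees, since Fgd5 and Ngef span 97.1 and 97.0 kb and Lhfpl2, Rasgrf1, Pde5a and Pde3a more than 100 kb, while all were higher.

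**Figure D5:**
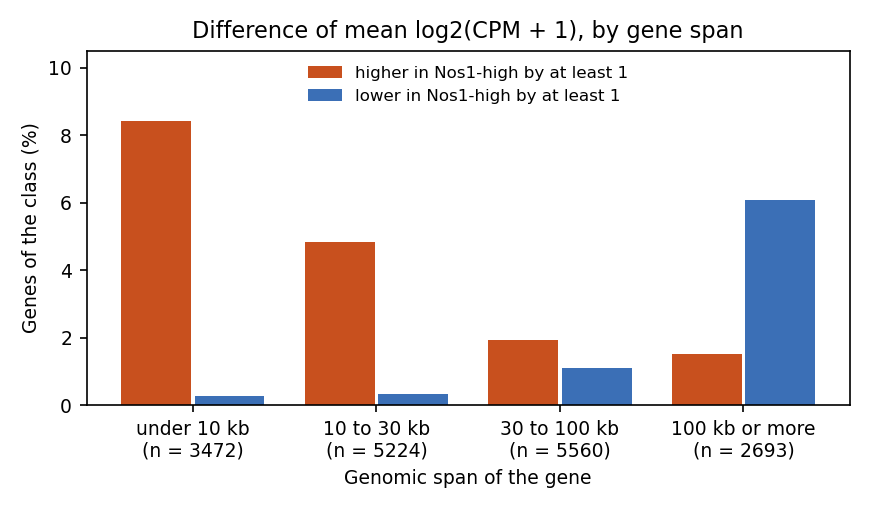
Share of genes, in percent, whose mean log2(CPM + 1) was at least 1 higher or lower in Nos1-high than in Nos1-low, in 4 classes of gene span, with the number of genes under each class. Genes called higher run from 8.41% of those under 10 kb to 1.52% of those of 100 kb or more, and genes called lower from 0.288% to 6.09%.

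When the bands were set anew within 2 classes of nuclei by their share of long-gene reads, 15 genes were higher by share and 4 lower, and 329 and 226 by level. Of these 15 genes, 13 were among the 44 above. Sstr2 then stood at 7.58% against 45.5%, Hcrtr1 at 34.8% against 71.2% and Fgd5 at 53.0% against 90.9%. Gatd1, Leprot, Nudt17, Wnt5a, Tmie and Ngef also passed there, at 30.3 to 31.8 points, and Ano5 at −31.8 points. Other named genes did not: Kcna5, Ppdpf and Lrp10 stood at 27.3 points, Adra2a and Trappc1 at 25.8, Zfp275 at 21.2 and Ddah2 at 19.7, and Mef2c and Usp9y at −28.8 and −25.8 points. Xpa, Tspo, Dhodh, Mrpl11, Gtf2h5 and Mrpl27 stood at 21.2 to 28.8 points. This alternative was added after the data were seen.

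The nuclei of the middle bands had no part in choosing the genes. Most of all genes tested were higher in the third than in the second band. The genes past the rules are therefore set beside that background. Of the 44 genes higher by share, 32 (72.7%) had a higher share in the third than in the second band, by a median of 5.21 points, against 61.0% and 1.54 points over all genes tested. For 29 of the 44 the share was higher at each of the 3 steps. Of the genes higher by level, 73.8% were higher in the third than in the second band, against 63.4% of all genes tested. Of those lower by level, 44.4% were lower in the third than in the second band, against 36.6% of all genes tested. Of the 3 lower by share 0 were lower, against 33.8% of all genes tested.

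Nucleus numbers run to 384, and blocks of 96 numbers match the size of a plate, although the labels do not name plates. Nos1-low held 21, 16, 11 and 18 nuclei of the 4 blocks and Nos1-high 14, 26, 17 and 9. When each block was cut into its own 4 bands, 38 of the 44 genes had a higher share in the highest than in the lowest band of all 4 blocks, and the other 6 did so in 3 blocks. These bands were ranked by the same Nos1 levels and reuse nuclei that chose the genes. Agreement in direction was thus largely set beforehand, and it was not counted over all genes tested. Sstr2 differed by 41.2, 41.2, 20.0 and 43.8 points within the blocks. Hcrtr1 differed by 41.2, 41.2, 40.0 and 25.0 points. Adra2a varied more, at 41.2, 5.88, 53.3 and 6.25 points, and Usp9y was 6.25 points higher in the fourth block while lower in the other 3.

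Genes next to Nos1 on chromosome 5 are given beside all genes tested. Of 48 annotated genes within 1 Mb, 26 were in the table and 16 were tested. None passed the share rule, and 1 passed the level rule, Pebp1, which lies 493.4 kb away and differed by 1.06. Of all genes tested, 0.252% were higher and 0.0172% lower by share, and 4.02% and 1.47% by level. With so few neighbours tested, these counts cannot be told apart from that background. The nearest, Ksr2 at 6.03 kb, differed by −0.14 and Fbxo21 at 17.9 kb by 0.54.

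Over all 265 kept nuclei, rank correlations with Nos1 were weak. Among 12395 genes with a read in at least 30% of nuclei, the highest rank correlation with Nos1 level was 0.40 for Syt5, a synaptotagmin gene. Other high values were 0.36 for Tmem130 and Cdipt, 0.35 for Hap1 and 0.34 for Ngef. The lowest were −0.35 for Cadm2, −0.34 for Gab2 and −0.33 for Kcnma1, a calcium-activated potassium channel gene. The points are nuclei that share a pool and its processing, and they are given without a p-value. The rank correlation of Nos1 level with total reads was −0.0043, and with the share of reads in genes of 100 kb or more it was −0.18.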

How the data were processed

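Single nuclei sorted for mCherry and a DNA dye were made into Smart-seq2 libraries without molecular identifiers, amplified over 22 cycles, so reads are not independent molecules. The authors deposited raw read counts, whole numbers per gene with symbols as names, covering 29779 genes and 383 nuclei. Per the submitters' processing notes the build was GRCm38 and the tools included bcl2fastq, STAR, Picard, edgeR and Seurat 3; the annotation, counting mode and use of strand are not given in the sources used here. Nucleus number 194 is not analysed here, and no column of another sample was used. From the counts, nuclei were kept and ranked by Nos1 CPM, thinned with a seeded hypergeometric draw to 500000 reads, and compared by share and by mean log2(CPM + 1) with Python 3.11.15, numpy 2.4.6, scipy 1.17.1 and pandas 2.3.3, in a procedure tested on simulated data. No doublet caller was run, since the nuclei were sorted 1 per well. The labels tie no nucleus to an animal, so all nuclei are 1 sample and no p-value was computed.

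Genes named by rule were Nos1, Chat, Slc5a7, Slc18a3, Tbx20 and core nitric oxide and cGMP genes; up to 12 with the widest share difference past the share rule and 6 with the widest level difference past the level rule in each direction; up to 4 members of each list past the share rule; and the 8 highest and 8 lowest by rank correlation with Nos1, with predicted names left out; some of these genes are not reported here. Lepr, Isl1, Leprot's comparison with Lepr, Pde3a, Chrnb4, Gal, Cck, Pdyn, Npy2r, Cckar, Prph, Tbx3, Ddah1 and the further list members were described after their values were seen. The members and lists were chosen with earlier results of these data known. Gene spans, exon overlaps and neighbours come from GENCODE M21 on GRCm38, which gave a span for 97.0% of the genes tested, and promoter windows from RefSeq on GRCm38.p6. Alternatives changed the thinning, detection limit, band width, ranking, scaling, pseudocount and gene filter, and left out or stratified nuclei.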

Additional observations from a re-analysis of the deposited data

Results flagged for a closer look

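Nos1 was also read in nuclei outside the comparison. Of the 29 nuclei with at least 500000 reads and 1000 genes that lacked a Tbx20 read, 26 had a Nos1 read, 89.7% (exact 95% interval 72.6% to 97.8%). Their Nos1 level ran from 0 to 811.4 CPM with a median of 47.0 CPM, within the range of the kept nuclei. The result is given because these nuclei lie outside the nuclei compared, and nothing is read from their share.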

How the results depend on the processing

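The 44 genes higher and 3 lower by share, and the 702 higher and 257 lower by level, were counted again under each alternative. The count lower by share was the least stable: it was 8 without thinning, 6 at 250000 reads, 6 in another random draw, 6 with a detection limit of 5 reads, 9 when ranked after thinning, 7 within 2 depth classes, 13 without Nos1-low nuclei at 0 Nos1 reads and 6 without nuclei with somatic motor markers. With narrower groups of 53 nuclei each it was 16, with 72 higher. With wider groups of 88 nuclei each, 6 genes were higher and 0 lower by share, and 313 higher and 88 lower by level. With bands set within blocks of nucleus numbers 28 were higher and 1 lower by share. A pseudocount of 10 CPM left 58 genes higher and 39 lower by level. Among alternatives chosen after seeing the data, the count lower by share was 7 without nuclei with a Cck read. Within 2 classes of genes detected 20 were higher and 8 lower by share. Within 2 classes of long-gene reads 15 were higher by share and 329 by level. The causes of these moves were not tested. The random draw alone exchanged part of the list, since 28 of the 44 genes higher by share were shared with the other draw, and 26 of the 47 genes past the share rule passed it under at least 7 of 14 alternatives. Omitting the gene filter or setting a mitochondrial limit of 10%, which removed no nucleus, gave the main counts. Of 729 values of 44 single genes under alternatives, 726 kept their direction and moved by less than the main value's interval or SD, and 3 moved further, all of Usp9y, at −15.2, −12.1 and −12.1 points without thinning, in another draw and at 5 reads, with 0 reversed. That limit is wide, so the count says little of stability. For Rasgrf1 the SD over Nos1-high nuclei was 4.04 beside a difference of 2.17. Ppdpf stayed within its limit while going from 36.4 to 19.7 points at 5 reads. No paired analysis was possible because all nuclei belong to 1 group. Intervals over 66 nuclei cover counting error only.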
